A study of Mus musculus with 6 samples.

Results

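Il1b, Cxcl2, Acod1, Clec4d, Il1rn and Tnf are genes of the inflammatory programme of myeloid cells, and their transcripts were followed cell by cell in mouse sciatic nerve. The 6 genes were chosen by their UMI counts in earlier results of these data, as transcripts of a few myeloid cells, and were taken by name from a table of 32285 genes in 364 cells, and 6 of 6 were found. At least 1 transcript of any of them was counted in 69 of the 364 cells, and Il1b in 22. The cells came from C57BL6/J mice aged 23 weeks, either fed HFD (taken here as high fat diet) or SD (taken here as standard diet). Cells of all libraries were enriched on anti-O4 beads, O4 being a lipid on the Schwann cell surface, so immune cells in them are those that passed or stuck to this step, and their number says little of their number in the nerve. The labels call all samples Schwann cells. Counts were analysed for 2 HFD libraries of 57 and 106 cells (349450 and 317297 UMIs, counts of distinct molecules) and for 3 SD libraries of 80, 81 and 40 cells (296605, 154528 and 37744 UMIs). HFD replicate 3 had no cells in the counts used here and was not analysed. Median depth ran from 818.5 to 6608 UMIs per cell in the HFD libraries and from 330.5 to 2577 in the SD libraries, and no cell barcode was shared between libraries.

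Interleukin-1 beta, the product of Il1b, is made as an inactive precursor that an inflammasome protease cuts before it acts on the IL-1 receptor, and the product of Il1rn blocks that receptor. Tnf encodes tumour necrosis factor, and Cxcl2 encodes a chemokine that draws neutrophils through the receptor CXCR2. Acod1 encodes the enzyme that makes itaconate from a citric acid cycle intermediate, and Clec4d a C-type lectin receptor on myeloid cells that signals through an Fc receptor adaptor. Most of these genes are induced in macrophages and neutrophils by signals that reach the transcription factor NF-kB.

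On GRCm38 with GENCODE M21, Il1b lies on the minus strand at chr2:129364570-129371139. Cxcl2 lies on the plus strand at chr5:90903871-90905938 and Acod1 on the plus strand at chr14:103046977-103056573. Clec4d is at chr6:123262111-123275265 on the plus strand, Il1rn at chr2:24336853-24351494 on the plus strand and Tnf at chr17:35199381-35202007 on the minus strand. The stretches around the transcription start of 3 members are shown because these genes were counted in different cells: Il1b in neutrophil-sorted and macrophage-sorted cells, Cxcl2 mostly in macrophage-sorted cells and Acod1 almost only in neutrophil-sorted cells. Each holds 250 bases before and 50 bases after the start, from RefSeq on GRCm38.p6, printed 5′ to 3′ on the gene's own strand. The windows are chr2:129371090-129371389 (minus strand) for Il1b, chr5:90903649-90903948 (plus strand) for Cxcl2 and chr14:103046762-103047061 (plus strand) for Acod1. Capitals mark matches to the motifs searched.
Il1b: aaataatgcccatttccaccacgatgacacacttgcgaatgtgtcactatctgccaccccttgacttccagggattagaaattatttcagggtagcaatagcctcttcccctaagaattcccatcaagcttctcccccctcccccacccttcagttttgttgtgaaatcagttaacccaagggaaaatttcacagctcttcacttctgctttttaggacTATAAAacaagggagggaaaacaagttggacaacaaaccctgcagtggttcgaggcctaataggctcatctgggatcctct
Cxcl2: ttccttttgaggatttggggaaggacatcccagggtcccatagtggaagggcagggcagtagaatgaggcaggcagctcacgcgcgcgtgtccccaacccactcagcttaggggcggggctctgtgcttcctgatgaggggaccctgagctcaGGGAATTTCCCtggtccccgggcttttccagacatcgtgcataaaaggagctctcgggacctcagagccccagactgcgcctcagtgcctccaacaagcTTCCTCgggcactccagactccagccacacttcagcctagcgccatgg
Acod1: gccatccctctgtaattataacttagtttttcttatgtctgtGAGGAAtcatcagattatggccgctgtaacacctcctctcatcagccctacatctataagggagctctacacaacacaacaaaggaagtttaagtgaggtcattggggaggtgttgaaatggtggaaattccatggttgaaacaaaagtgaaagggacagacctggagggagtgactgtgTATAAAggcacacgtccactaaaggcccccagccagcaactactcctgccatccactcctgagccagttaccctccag

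Motifs were searched on both strands in the windows of all 6 members and in 32851 windows of the same length from the whole genome's genes. The letters TATAAA, the TATA box, stood at -31 to -26 from the start of Il1b, at -28 to -23 for Acod1 and at -29 to -24 for Tnf. In 1 of the 3 windows of Il1rn they stood on the opposite strand, 14 to 19 bases after the start. A match at any place in the window was found in 13.6% of all windows. The NF-kB consensus was found in the window of Cxcl2 alone, from -97 to -87, where matches on the 2 strands overlap, against 8.46% of all windows. GAGGAA, the core that PU.1 binds, was found in the windows of Cxcl2, Clec4d, Acod1 and Tnf (28.3% of all windows). TGANTCA, bound by AP-1, was found for Il1rn alone (7.81%). These are letter matches, not measured binding sites.

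Each cell was sorted by its UMIs of 4 marker genes. A neutrophil-sorted cell had at least 3 UMIs of S100a8 and S100a9, which encode the calprotectin subunits of neutrophils, and more of these than of C1qa and Cd74. A macrophage-sorted cell had at least 3 UMIs of C1qa, a complement subunit, and Cd74, the MHC class II chaperone. The rest were called other. Of the 364 cells, 5 were neutrophil-sorted, 119 macrophage-sorted and 240 other. Median depth was 6605, 6253 and 626.5 UMIs per cell in these 3 classes. The 5 neutrophil-sorted cells held 6812 UMIs of a list of 20 neutrophil genes, with 17 of the 20 detected, and 79 UMIs of a list of 15 macrophage genes. The 119 macrophage-sorted cells held 36299 UMIs of the macrophage list and 103 of the neutrophil list. Both lists include the sort markers, so these sums are partly fixed by the sort. Of the 6812 UMIs, 5492 were of S100a8 and S100a9. Of the 36299 UMIs, 10022 were of Cd74 and 2344 of C1qa. Cd74 is also made by dendritic cells and B cells, so the macrophage class can hold these.

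All 5 neutrophil-sorted cells came from HFD libraries, 4 from HFD replicate 1 and 1 from HFD replicate 2, and 0 from the 3 SD libraries. They were 7.02% of the cells of HFD replicate 1 and 0.943% of those of HFD replicate 2, while counts of 0 allow up to 3.75%, 3.70% and 7.5% in SD replicates 1, 2 and 3. HFD replicate 2 lay below each of these limits. The deposited annotation has no neutrophil cluster, and it placed 3 of them in cluster 1, named mySC, and 2 in cluster 3, named repairSC. Between 506 and 1707 UMIs of S100a8 and S100a9 were counted in each, against 0 or 1 of C1qa and Cd74. Transcripts of Il1b were counted in all 5 cells. It had 108, 77, 62 and 59 UMIs in the cells of HFD replicate 1 and 38 UMIs in the cell of HFD replicate 2. Together they held 344 of the 550 Il1b UMIs of the data, 62.5%, in 5 of 364 cells.

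Acod1 was counted almost only there. Its UMIs in the same 5 cells, in the same order, were 48, 54, 10 and 18 in HFD replicate 1 and 17 in HFD replicate 2, 99.3% of the 148 in all. The remaining UMI was in 1 macrophage-sorted cell of HFD replicate 2. Clec4d had 19, 20, 27 and 9 UMIs in the cells of HFD replicate 1 and 24 in that of HFD replicate 2, 83.9% of 118. Of its other UMIs, 14 were in a single macrophage-sorted cell of SD replicate 1, a deep cell of 13999 UMIs with 1419 UMIs of the lipid carrier gene Apoe. Thus the enzyme and the lectin were each present in 5 of 5 neutrophil-sorted cells, and in 1 and 3 of 119 macrophage-sorted cells.

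Cxcl2 was divided otherwise. In the 5 neutrophil-sorted cells it had 26, 150, 13 and 0 UMIs in HFD replicate 1 and 39 in HFD replicate 2, which is 15.3% of its 1492 UMIs. Macrophage-sorted cells held 83.1%, and 47 of the 119 had at least 1 UMI (39.5%, exact 95% binomial interval 30.7 to 48.9, counting error only). Tnf followed the same division, with 78.7% of 61 UMIs in macrophage-sorted cells, 18 of 119 of them positive, and 13.1% in neutrophil-sorted cells. Il1rn, the receptor antagonist, had 10 UMIs in 6 cells, 3 of them in neutrophil-sorted cells. It is too sparse at this depth for any order between classes.

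**Figure D1:**
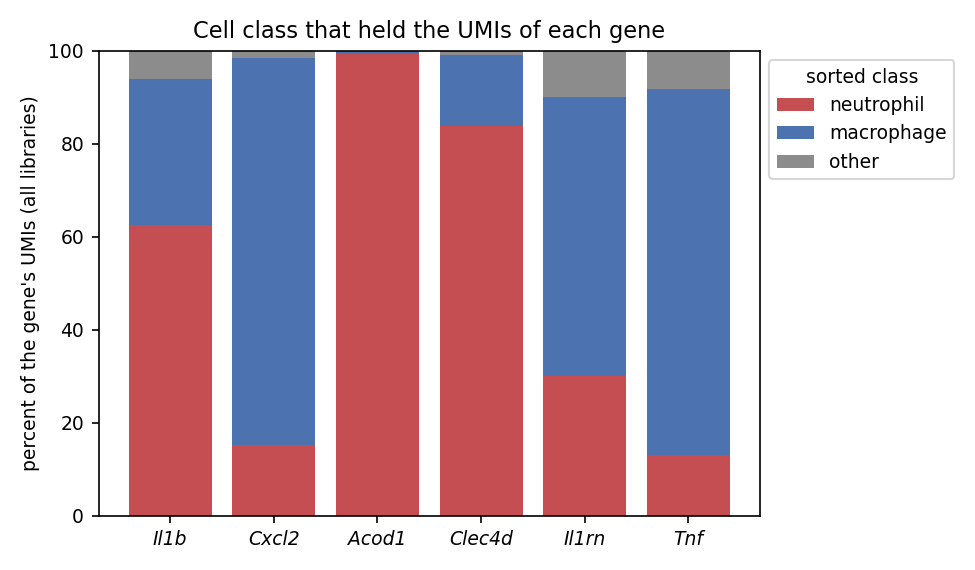
Percent of each gene's UMIs (y axis, all libraries together) held by the neutrophil-sorted, macrophage-sorted and other cells, with 1 stacked bar per gene. Acod1 and Clec4d lie mostly in the 5 neutrophil-sorted cells (99.3% and 83.9%), Cxcl2 and Tnf mostly in the 119 macrophage-sorted cells (83.1% and 78.7%), and Il1b is divided between them (62.5% and 31.5%).

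As levels in a class, in counts per 1000000 UMIs (CPM), Il1b stood at 9361 in neutrophil-sorted cells, 266 in macrophage-sorted cells and 70.4 in the other cells. Cxcl2 stood at 6205, 1908 and 51.2 CPM in the same order of classes. Acod1 stood at 4000, 1.54 and 0 CPM, and Clec4d at 2694, 27.7 and 2.13. These genes therefore had their highest level in the 5 neutrophil-sorted cells, as did Tnf (218, 73.9 and 10.7 CPM), although most Cxcl2 and Tnf transcripts were in the 119 macrophage-sorted cells. In deposited clusters 2 and 4, with 84 cells in all, 0 UMIs of any member were counted.

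The 22 Il1b-positive cells fell into 5 neutrophil-sorted, 15 macrophage-sorted and 2 other cells. The 15 macrophage-sorted cells held 173 Il1b UMIs, with a lowest count of 1, a median of 3 and a highest of 59. In SD libraries these were 6 cells of SD replicate 1, with 27, 25, 13, 6, 3 and 1 UMIs, and 1 cell of SD replicate 2 with 29. In HFD libraries they were 6 cells of HFD replicate 1, with 3, 2, 1, 1, 1 and 1 UMIs, and 2 cells of HFD replicate 2, with 59 and 1. The cell of 59 UMIs stood apart from the other Il1b-positive macrophage-sorted cells of HFD libraries, none of which had more than 3.

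That cell, of 20329 UMIs, had 311 UMIs of Cd74 and 0 of C1qa and Apoe. It had 12 UMIs of the dendritic cell list, from 5 of its genes, and 0 of Cxcl2, and it lay in deposited cluster 1, outside the macrophage cluster. Among further genes viewed it had 519 UMIs of Cst3, 193 of the MHC class II gene H2-Aa, 22 of Irf8, 18 of Wdfy4 and 7 of Ccl22. The 4 SD cells with more than 10 Il1b UMIs differed from it in C1qa and Apoe. They had between 29 and 52 UMIs of C1qa and between 54 and 133 of Apoe. A second Il1b-rich barcode without C1qa was sorted as other: it came from HFD replicate 2 and had 31 Il1b, 16 Cxcl2, 4 Tnf and 1 Clec4d UMIs among 7634. It held 96 UMIs of Apoe, 42 of the lysozyme gene Lyz2, 3 of the neutrophil receptor gene Csf3r and 1 of Cd74, and also lay in cluster 1. S100a8 and S100a9 were at 0 in it. Among further genes viewed it had 36 UMIs of Fcer1g, 30 of Cebpb, 22 of Gngt2, 12 of Adgre4 and 4 of Spn. Neither barcode is given a cell type here.

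**Figure D2:**
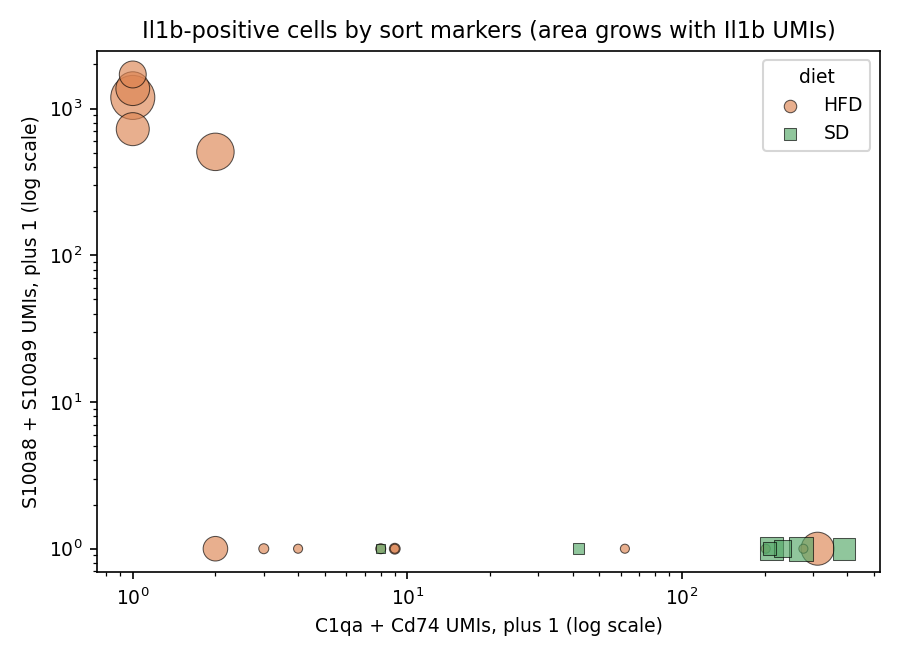
The 22 Il1b-positive cells, by UMIs of S100a8 and S100a9 (y axis) against UMIs of C1qa and Cd74 (x axis), each plus 1 on a log axis. The area of a point grows with Il1b UMIs, circles are HFD cells and squares SD cells. The 5 neutrophil-sorted cells sit at 506 to 1707 S100a8 and S100a9 UMIs, while the other 17 have 0.

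Near the sorting threshold of 3 marker UMIs, the macrophage-sorted cell just inside had 3 UMIs of Cd74 and the other cell just outside had 2. Both were shallow cells of HFD replicate 1, with 506 and 543 UMIs. In all, 5 Il1b-positive cells had under 600 UMIs (506 to 580), all 5 from HFD replicate 1, with 9 Il1b UMIs between them. HFD replicate 1 was also the library with 4 of the neutrophil-sorted cells. These shallow cells held 0 UMIs of S100a8 and S100a9. The neutrophil-sorted cells of the same library had 12.4 UMIs of S100a8 and S100a9 for each UMI of Il1b. The source of the Il1b UMIs in the shallow cells was not tested. Outside the neutrophil-sorted cells, S100a8 and S100a9 were seen at 1 UMI in 1 of 53 cells of HFD replicate 1 and 1 UMI in 1 of 105 cells of HFD replicate 2.

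The members were counted together to different degrees. Of the 22 Il1b-positive cells, 14 also had Cxcl2, 8 Tnf, 6 Clec4d, 5 Acod1 and 5 Il1rn. Acod1 and Il1b were found together in the 5 neutrophil-sorted cells and in 0 of the 15 Il1b-positive macrophage-sorted cells, and so was Clec4d. Of those 15 cells, 8 had Cxcl2 and 4 had Tnf. Most Cxcl2-positive macrophage-sorted cells lacked Il1b: 8 of 47 had an Il1b UMI, and 12 of 47 had Tnf. Of the 18 Tnf-positive macrophage-sorted cells, 12 had Cxcl2. A count of 0 in one cell can be a missed transcript, so these are pairs of detected transcripts.

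**Figure D3:**
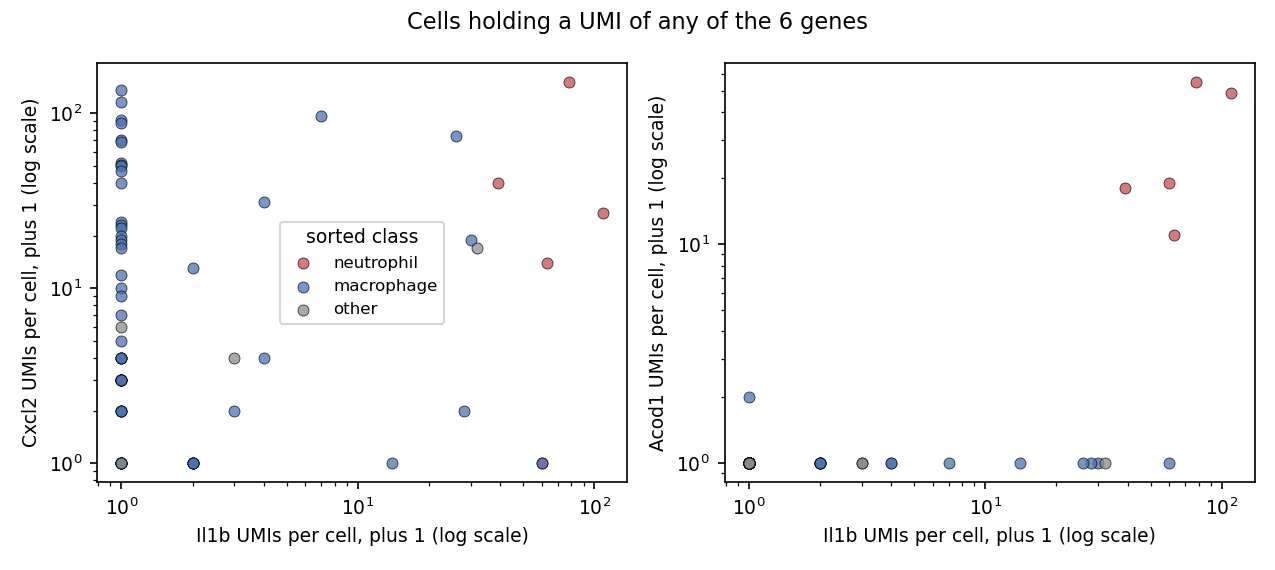
UMIs per cell of Cxcl2 (left panel) and Acod1 (right panel) against those of Il1b (x axis), each plus 1 on a log axis, in the 69 cells with any member, coloured by sorted class. Acod1 counts of 10 or more occur only beside 38 to 108 Il1b UMIs in the neutrophil-sorted cells, whereas Cxcl2 counts of macrophage-sorted cells up to their highest (135 UMIs) occur at 0 Il1b.

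With all cells in view, the pattern most like that of Il1b was set by the neutrophil-sorted cells. Over 182 cells with at least 1000 UMIs and 10551 genes, Pearson's r of log2(UMIs per 10000 + 1) with Il1b was highest outside the members for Itgal (0.777), Trem1 (0.773), Pglyrp1 (0.750), Jaml (0.738), Msrb1 (0.730) and Slc16a3 (0.728). Trem1 encodes an amplifying receptor of neutrophils and monocytes, Pglyrp1 a granule peptidoglycan-binding protein, and Itgal the alpha chain of the leukocyte integrin LFA-1. Among the members, r with Il1b was 0.720 for Acod1, 0.692 for Clec4d, 0.488 for Il1rn, 0.370 for Cxcl2 and 0.365 for Tnf. The cells share 5 libraries and the 5 neutrophil-sorted cells carry most of these transcripts, so r is a description. Without those 5 cells, a set chosen after seeing the values (177 cells), other genes came first: Arl5c (0.725), Bcl2a1d (0.567) and Traf1 (0.543), and r was 0.256 with Cxcl2 and 0.312 with Tnf. In a second such set, 82 macrophage-sorted cells of that depth, Cxcl2 was most like Cd83 (0.587), Nfkbiz (0.507) and Zfp36 (0.479), and its r was 0.319 with Tnf and 0.130 with Il1b. Cd83 is an activation marker of antigen-presenting cells, Nfkbiz encodes an atypical inhibitor of NF-kB and Zfp36 a protein that destabilises cytokine mRNAs.

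Cxcr2 and the decoy receptor gene Il1r2 were counted in the neutrophil-sorted cells alone, and both are in the neutrophil list. In the list made for CXCR2 ligands and receptors, Cxcr2 itself had 55 UMIs, all in the 5 neutrophil-sorted cells. Its ligand gene Cxcl1 had 41 UMIs in macrophage-sorted and 12 in other cells. Cxcl3, a further ligand gene, had 1 UMI in neutrophil-sorted and 1 in macrophage-sorted cells. Pf4, the gene of platelet factor 4, is in this list but is not taken here as a CXCR2 ligand gene. It had 2097 of its UMIs in macrophage-sorted cells, against 1 in neutrophil-sorted cells. Of the IL-1 family, Il1r2, the decoy receptor that binds IL-1 without signalling, had 152 UMIs, all of them neutrophil-sorted, and Il18rap, a subunit of the IL-18 receptor, had 22 there and 2 in macrophage-sorted cells. Irak2 and Irak3, kinase family members below the IL-1 receptor, had 7 and 12 UMIs in neutrophil-sorted cells and 73 and 25 in macrophage-sorted cells. As levels in a class they stood higher in neutrophil-sorted cells, at 190 and 327 CPM against 112 and 38.5 CPM.

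Genes of the inflammasome, which processes the IL-1 beta precursor, were counted in both classes, with 10 of the 13 listed detected in neutrophil-sorted cells. Casp1, the gene of the protease that cuts the precursor, was not among them. It had 0 UMIs there and 26 in macrophage-sorted cells (40.0 CPM), a level that 5 cells can miss. Nlrp3, the inflammasome sensor, had 31 UMIs in the 5 neutrophil-sorted cells and 100 in the 119 macrophage-sorted cells (844 and 154 CPM). Casp4, the caspase-11 gene, had 16 and 325 (435 and 500 CPM). Of the C-type lectin adaptors, Tyrobp had 119 UMIs in neutrophil-sorted and 1183 in macrophage-sorted cells, and Fcer1g, the adaptor through which Clec4d signals, 26 and 1170. As levels in these classes, Tyrobp stood at 3238 and 1820 CPM and Fcer1g at 708 and 1800 CPM. Slc7a11, the cystine importer, followed Acod1 rather than Cxcl2: 171 of its UMIs were in the 5 neutrophil-sorted cells, 2 in macrophage-sorted cells and 3 in others. Of the 24 NF-kB subunit and feedback genes, 21 had most of their UMIs in macrophage-sorted cells, among them Nfkbiz (66 UMIs in neutrophil-sorted and 872 in macrophage-sorted cells) and Zfp36 (71 and 1842). The exceptions, named after their values were seen, were Ptgs2 (cyclooxygenase-2, 52 and 3), Plaur (the urokinase receptor, 57 and 14) and Tnip1, with most in other cells. Per UMI of a class, 14 of the 24 stood higher in neutrophil-sorted than in macrophage-sorted cells. These are sums over few cells, and no test was made between classes.

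Macrophage-sorted cells differed widely from each other in Cxcl2. Among those with at least 5000 UMIs, 19 of 41 HFD cells and 11 of 22 SD cells had Cxcl2, with counts from 0 to 135 UMIs and from 0 to 115 UMIs. The 5 richest macrophage-sorted cells held 54.7% of 823 Cxcl2 UMIs on HFD and 84.7% of 417 on SD. Median immediate early gene UMIs per 10000, a list of genes that tissue dissociation induces, were 383 in the 19 HFD cells with Cxcl2 and 309 in the 22 without, and 445 in the 11 SD cells with it and 230 in the 11 without. The list of NF-kB subunits and feedback genes stood at 103 and 60.1 per 10000 in these HFD cells with and without Cxcl2, and at 74.5 and 28.5 in the SD cells. Cells with Cxcl2 had the higher medians of both lists on both diets, but the ranges overlapped. Immediate early values ran from 1.37 to 683 with Cxcl2 and 6.05 to 960 without on HFD. On SD they ran from 239 to 742 and 0 to 443. NF-kB values ran from 1.37 to 181 and 0 to 187 on HFD, and 19.5 to 140 and 6.75 to 83.5 on SD. These cells are pooled over libraries, and the part of dissociation in the Cxcl2 counts was not tested. Zfp36 is in both lists.

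Summed over all cells of a library, Il1b, Acod1, Clec4d and Tnf were higher in each HFD library than in each SD library. That is 4 of the 5 members with enough counts for the fit across genes, against 11% of the 5510 genes in it. The members were chosen by their counts in these data. Acod1, at 0 in each SD library, could enter the fit through the HFD libraries alone. The comparison with all genes is therefore a description and no test. In a sum, fewer cells of a type and less RNA per cell cannot be told apart. Il1b had 907 and 407 CPM in HFD replicates 1 and 2, against 253, 188 and 0 CPM in SD replicates 1, 2 and 3. The groups did not overlap, with means of 657 ± 354 on HFD (standard deviation, n = 2) and 147 ± 131 on SD (standard deviation, n = 3). Acod1 had 372 and 56.7 CPM on HFD and was at 0 in all 3 SD libraries. Pooled over libraries, it stood at 222 CPM on HFD, 36.2-fold higher than the 6.14 CPM that 3 counts would give over the SD libraries. This bound treats UMIs as independent, although 99.3% of them lay in 5 cells, so it is too firm. By cells, 3.68% of HFD cells had an Acod1 UMI, and the 0 on SD allows up to 1.49%. HFD replicate 1 held 130 of the 148 UMIs, and without it the bound by UMIs was 9.24-fold. That bound was 60.6-fold without HFD replicate 2 and 14.2-fold without SD replicate 1.

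Clec4d, the lectin receptor, had 226 and 78.8 CPM on HFD, against 47.2, 0 and 0 on SD, where all 14 UMIs came from the 1 deep cell. Tnf had 60.1 and 75.6 CPM on HFD and 50.6, 6.47 and 0 CPM on SD. Neither gene's groups overlapped. For Cxcl2, with 2295 and 860 CPM on HFD and 1301, 188 and 53.0 CPM on SD, the groups did overlap, since SD replicate 1 lay above HFD replicate 2. Il1rn had 17.2 and 0 CPM on HFD, against 10.1, 6.47 and 0 CPM on SD, in 6 and 4 UMIs.

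**Figure D4:**
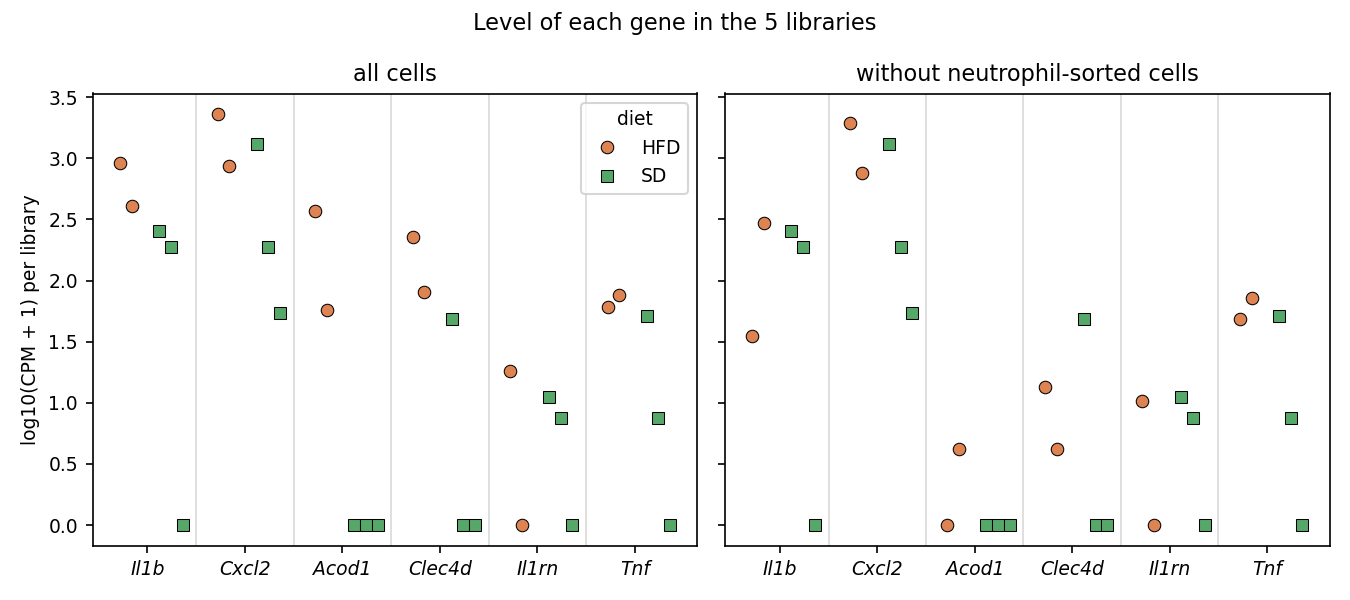
Level of each member as log10(CPM + 1) (y axis), 1 point per library, over all cells (left panel) and without the 5 neutrophil-sorted cells (right panel), HFD circles left of SD squares. Without those cells, Acod1 is at 0 and 3.21 CPM in the HFD libraries, and the HFD points of Il1b are at 34.5 and 292 CPM, on both sides of SD replicates 1 and 2.

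With the diet as the only term and low counts filtered out, none of these differences passed the test across all genes. In edgeR's quasi-likelihood test on library sums, 0 of the 5 members tested had a Benjamini-Hochberg adjusted p under 0.05, while 5 of 5510 genes did (0.0907%), all higher on HFD. Of those genes, 4 are in the neutrophil list, of which 6 were tested, and 1 was Slc7a11. Without the neutrophil-sorted cells, 0 of 5479 genes were called. At an unadjusted p under 0.05 there were 242 genes, and DESeq2 called 9. The log2 fold change of HFD over SD was 2.19 ± 0.82 for Il1b (standard error, adjusted p = 0.943), 2.84 ± 0.95 for Clec4d (adjusted p = 0.943), 1.73 ± 1.25 for Cxcl2 (adjusted p = 0.945) and 1.39 ± 0.78 for Tnf (adjusted p = 0.943). For Acod1 the adjusted p was 0.347. Acod1 passed in edgeR with no low-count filter (adjusted p = 5.75e-09) and without HFD replicate 2 (adjusted p = 2.44e-06), and over its 10 alternatives the adjusted p ran from 5.75e-09 to 1.00. Clec4d passed with no filter (edgeR, adjusted p = 0.0257), and its 10 alternatives ran from 0.00678 to 1.00. Il1rn was too low for the test. Since Il1b, Acod1 and the cells that hold them were chosen with these levels known, the levels are a description.

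The diet difference in Il1b depended on which cells were counted. Without the 5 neutrophil-sorted cells it had 34.5 and 292 CPM in the HFD libraries, against 253, 188 and 0 CPM in the SD libraries, with 0.02 ± 1.01 as its log2 fold change (edgeR, adjusted p = 0.999). Of the 91 Il1b UMIs left in HFD replicate 2, the 2 Il1b-rich barcodes that lacked C1qa held 59 and 31. In macrophage-sorted cells alone Il1b had 36.6 and 356 CPM on HFD, against 440, 502 and 0 CPM on SD, where SD replicate 3 had 1 such cell, and the log2 fold change was -1.05 ± 0.57 (edgeR, adjusted p = 1.00). With all cells counted, both HFD libraries lay above every SD library. Without the neutrophil-sorted cells the diets overlapped. In macrophage-sorted cells both HFD libraries lay below SD replicates 1 and 2 but above SD replicate 3, so over all libraries the diets overlapped there too. How many genes of that set showed the same order was not counted.

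Deposited cluster 0, named Macrophages by the authors, holds none of the 5 neutrophil-sorted cells and neither of the Il1b-rich barcodes without C1qa. There Il1b had 49.2 and 6.90 CPM in HFD replicates 1 and 2, against 523 and 471 CPM in SD replicates 1 and 2, and SD replicate 3, with 0 Il1b UMIs in 8 cells, did not enter the fit. Every HFD library lay below both SD libraries, as did 15.7% of the 2108 genes tested there. The log2 fold change was -4.01 ± 0.55. Il1b was the 1 gene called of the 2108 (0.0474%, edgeR, adjusted p = 0.0190), a result that was known when the members were chosen and that is given as a description. At an unadjusted p under 0.05 there were 128 genes, and DESeq2 called 1.

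Few cells carried it. In SD libraries, 3 macrophage-sorted cells held 77.9% of the 104 Il1b UMIs. Without the cell with the most Il1b in each library, Il1b of cluster 0 was too low for the fit and 0 of 2053 genes were called. In macrophage-sorted cells with at least 1 UMI of a C1q gene, a set chosen after seeing the data, the log2 fold change was -4.23 ± 0.71 and Il1b was again the 1 gene called, of 2474 (edgeR, adjusted p = 7.63e-06). This set shares most of its Il1b-positive cells with cluster 0 and is no separate evidence.

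**Figure D5:**
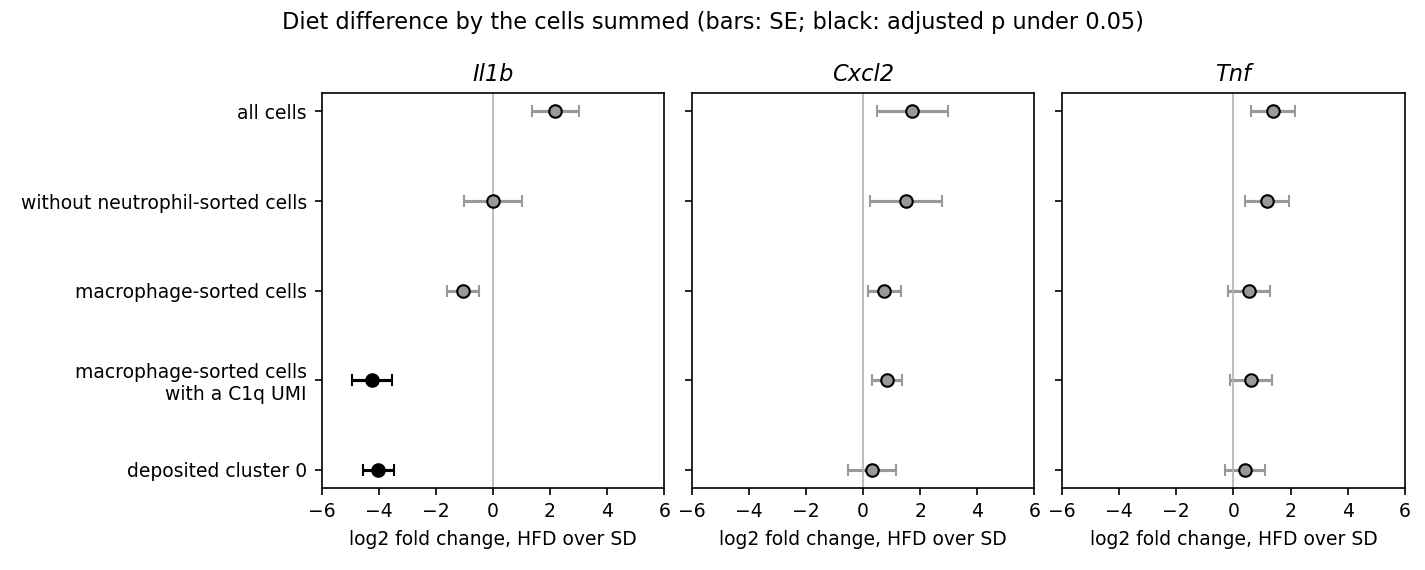
Log2 fold change, HFD over SD, of Il1b, Cxcl2 and Tnf in each set of cells (points, with standard errors as bars, black where the edgeR adjusted p was under 0.05). Il1b runs from 2.19 over all cells to -4.23 in macrophage-sorted cells with a C1q UMI, while Cxcl2 and Tnf stay above 0 in each set shown.

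Cxcl2 and Tnf, most of whose transcripts were in macrophage-sorted cells, kept a positive log2 fold change in each set of cells: Cxcl2 ranged from 0.75 to 1.73 and Tnf from 0.53 to 1.39 over the sets made from all cells. In macrophage-sorted cells Cxcl2 had 2457 and 1295 CPM on HFD, against 2264, 502 and 281 CPM on SD. The share of Cxcl2-positive cells was 44.7% and 40.0% on HFD, against 33.3% and 35.3% in SD replicates 1 and 2 and 1 of 1 cell in SD replicate 3. Median depth of these cells was 7676 and 5999 UMIs on HFD and 4917, 596 and 7121 on SD. Among those with at least 5000 UMIs, 12 of 25 and 7 of 16 had Cxcl2 on HFD, against 7 of 16, 3 of 5 and 1 of 1 on SD, and the shares of the diets overlapped. In cluster 0 Cxcl2 had 2736 and 1497 CPM on HFD, against 2676 and 471 CPM on SD, its log2 fold change being 0.32 ± 0.85 (edgeR, adjusted p = 0.981). Tnf there had 67.1 and 124 CPM on HFD, against 97.6 and 16.2 CPM on SD, its log2 fold change being 0.40 ± 0.69 (edgeR, adjusted p = 0.961). The libraries overlapped for both genes. SD replicate 1 decided the value of Cxcl2: without it the log2 fold change was 2.18 and passed the test (edgeR, adjusted p = 2.43e-05), and over the other libraries left out in turn it turned negative without HFD replicate 1 (-0.18) and without SD replicate 2 (-0.44). Tnf likewise turned negative without HFD replicate 2 (-0.05) and without SD replicate 2 (-0.18).

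The libraries were made under 2 project numbers, with HFD replicate 1 and SD replicates 1 and 2 under the first and HFD replicate 2 and SD replicate 3 under the second. Over all cells, Il1b had 907 CPM on HFD and 231 on SD within the first, and 407 and 0 within the second. Without the neutrophil-sorted cells these were 34.5 on HFD and 231 on SD within the first, and 292 and 0 within the second, where 1 library stood on each side. In that second project 90 of the 91 UMIs on HFD came from the 2 barcodes without C1qa, and SD replicate 3 held 1 macrophage-sorted cell. Cxcl2 had 2295 CPM on HFD and 920 on SD in the first and 860 and 53.0 in the second. With the project as a term in the fit over all cells, 57 of 5510 genes were called. Il1b (2.82, edgeR, adjusted p = 0.00852), Clec4d (3.36, edgeR, adjusted p = 0.0434) and Acod1 (edgeR, adjusted p = 1.68e-05) were among them. Cxcl2 did not pass (2.45, edgeR, adjusted p = 0.417). Neutrophil list levels were 13679 and 6782 CPM on HFD, against 108, 38.8 and 185 CPM on SD. On HFD the list and Il1b, Clec4d and Acod1 share the neutrophil-sorted cells, so the list is no separate evidence. Among SD libraries the list was highest in SD replicate 3, where Il1b, Clec4d and Acod1 were at 0. Without the neutrophil-sorted cells 0 genes were called in the fit without the term.

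The share of cells with an Il1b UMI was 19.3% in HFD replicate 1 (11 of 57 cells) and 3.77% in HFD replicate 2 (4 of 106), against 7.5% (6 of 80), 1.23% (1 of 81) and 0 of 40 cells in the SD libraries. The 0 of SD replicate 3, at a median of 330.5 UMIs per cell, limits cells with a counted transcript to 7.5% and says nothing of cells that express the gene. The means were 11.5% ± 11.0 on HFD (standard deviation, n = 2) and 2.91% ± 4.02 on SD (standard deviation, n = 3), a difference of 8.62 percentage points within the spread between libraries (two-sided exact permutation test, p = 0.3). With 2 against 3 libraries this test cannot go below 0.1. After each cell was thinned to 500 UMIs, which left out 37 HFD and 70 SD cells, the shares were 9.34% ± 9.12 on HFD (n = 2) and 2.04% ± 1.90 on SD (n = 3; two-sided exact permutation test, p = 0.2). HFD replicate 1 made most of the difference, which was 0.862 percentage points without it.

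Of the other genes of these pathways, 1 was called over all cells. It was Slc7a11 (edgeR, adjusted p = 0.0428), of which the 5 neutrophil-sorted cells, all from HFD libraries, held 171 UMIs. The list of itaconate, NRF2 and cystine genes had 9 of 10 tested genes above SD and a median log2 fold change of 0.92, with 1 gene called higher and 0 lower. For the 18 NF-kB genes tested the median was 1.28 with 18 above SD, for 6 TNF genes it was 0.73 with 5 above and for 8 C-type lectin and adaptor genes 0.83 with 7 above, and 0 were called in each. The 6 genes of the IL-1 family had a median of 0.23, the 9 inflammasome genes 0.34 and the 2 genes tested of the CXCR2 list 1.32, also with 0 called. The median over all 5510 genes was 0.02. The summed level of the NF-kB list was 6550 and 5430 CPM on HFD, against 3516, 3093 and 1616 CPM on SD, and that of the macrophage list 40561 and 26445 CPM on HFD, against 35765, 21420 and 16215 CPM on SD. The part of macrophage number and depth in the NF-kB difference was not tested.

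In cluster 0 the same lists had 0 genes called. There the NF-kB genes had 10 of 12 above SD and a median of 0.48, the inflammasome genes 4 of 9 above SD and a median of -0.13, and the C-type lectin and adaptor genes 2 of 7 above SD and a median of -0.23, against a median of 0.01 over all genes. Nlrp3, the inflammasome sensor, changed by 2.77 ± 0.65 on the log2 scale over all cells (edgeR, adjusted p = 0.404) and 1.66 ± 0.50 in cluster 0 (edgeR, adjusted p = 0.530), and did not pass in either. It stood opposite in sign to Il1b in cluster 0, and that difference between genes was not tested.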

How the data were processed

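Single-cell 3′ libraries (10x Genomics) were made from O4-enriched sciatic nerve cells, per the labels' protocols. Cell Ranger 3.1.0 and mm10 are named in the submitters' processing notes. Raw UMI counts were deposited by the authors for 32285 genes in 364 cells, with each cell's library and cluster (resolution 0.5). The sources used here do not give cell filters or doublet treatment, and no doublet caller was run. Control libraries of the tables were taken as SD, since tables and labels share the name HFD. The 2 project numbers in the library key were used as the run term. That they stand for sequencing runs is an assumption.

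Counts were summed per library and compared by edgeR 4.0.16 (R 4.3.3) with filterByExpr and TMM (robust quasi-likelihood fit, diet as the only term, Benjamini-Hochberg at 0.05). Cluster 0 was fitted on libraries with at least 10 of its cells. Standard errors are approximate, from the fold change and the F statistic. CPM use all UMIs of the cells named, without TMM. Library totals ran from 37744 to 349450 UMIs, and counting error alone underlies intervals and the floor of 3 counts. Shares were compared with exact permutation tests (scipy 1.17.1). Alternatives were RLE scaling, DESeq2 1.42.0, no low-count filter, replicate block, run term, other cell sets, sorting thresholds and leaving out each library. The labels do not state whether replicates are different animals, and p-values therefore reflect between-sample spread alone, possibly technical. The 6 members, always named, and the lists were chosen with earlier results of these data known. Other names are the 6 genes most correlated with Il1b, up to 4 genes per pathway list with most UMIs in Il1b-positive cells, and any list gene past the threshold. Single cells and the genes named in them, Ptgs2, Plaur, Tnip1, Casp1, Cxcl1, Cxcl3, and partners of Cxcl2 were chosen after their values were seen.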

Additional observations from a re-analysis of the deposited data

How the results depend on the processing

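The count of genes called over all cells, 5, was 9 with DESeq2, 47 with no low-count filter, 57 with the run as a term and 0 to 54 with each library left out in turn (0 without SD replicate 1, 2 without SD replicate 2, 3 without SD replicate 3, 8 without HFD replicate 1 and 54 without HFD replicate 2). It was 0 without the neutrophil-sorted cells, 0 in macrophage-sorted cells, 0 without the neutrophil-sorted cells and the Il1b-rich barcodes lacking C1qa, and 1 in macrophage-sorted cells with a C1q UMI. In those last 3 sets Il1b was -1.05, -2.88 and -4.23 on the log2 scale, against 2.19. The second set was chosen by Il1b itself and removes HFD cells alone, so its direction is fixed by the choice. In cluster 0 the count of 1 was 4 with no filter, 2 with the run as a term, 0 without the cell richest in Il1b in each library and 2 to 26 with a library left out (17 without HFD replicate 1, 4 without HFD replicate 2, 26 without SD replicate 1 and 2 without SD replicate 2). Il1b there ran from -6.02 to -3.38 over the 10 alternatives that kept it. These draw on the same few Il1b-positive cells and are no separate evidence. The alternative without the cell richest in Il1b in each library did not keep it. Cxcl2 of cluster 0 ran from -0.44 to 2.18 with a library left out, with -0.18 and -0.44 below 0, and Tnf from -0.18 to 2.47, with -0.05 and -0.18 below 0. Tnf was -0.078 with the run term. With no low-count filter, 16099 genes were tested over all cells and 12105 in cluster 0. With the replicate number as a block, 84 of 7016 genes were called over all cells and 5 of 2108 in cluster 0. Over all cells Il1b (1.65, edgeR, adjusted p = 0.0379), Cxcl2 (1.61, adjusted p = 0.0124), Clec4d (2.96, adjusted p = 0.00678) and Acod1 (adjusted p = 1.91e-07) passed in this fit. Deviations of same-numbered libraries correlated at 0.282 and -0.0865 over all cells and -0.046 in cluster 0. With 2 HFD libraries these deviations mirror each other, so this check can hardly show a pairing, and the labels give none. The difference in Il1b-positive share ran from 0.862 to 16.4 percentage points with a library left out, and from 0.855 to 13.7 after thinning. At sorting thresholds of 1 and 10 marker UMIs, 0 and 7 Il1b-positive cells were other, and 6 with C1q genes alone, while the neutrophil-sorted cells stayed at 5. The causes were not tested. Few cells, low depth of SD replicate 3 and 5 neutrophil-sorted cells limit each value.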
